A study of Mus musculus with 12 samples.

Results

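The 10 genes described here are the transcription factor NRF2 (gene Nfe2l2), its inhibitor Keap1 and 8 genes whose transcription NRF2 is known to raise, among the 27022 genes counted in mouse liver. They are a list of names, drawn up with earlier results of these data known, and all 10 were found in the table through their Ensembl identifiers. The livers came from 6 female SJL/J mice of 11 weeks, which all received the AIN-93G control diet with 50 ppm iron from 3 weeks of age. The 3 control mice stayed on it, while the 3 iron-loaded mice received AIN-93G with 2% carbonyl iron from 6 weeks. Each diet was given to 1 cage of 4 mice, and the effects of diet and of cage therefore cannot be told apart. All mice were fasted and perfused before the liver was taken. Each RNA was made into a library with a KAPA kit for stranded mRNA-Seq (Trad-KAPA), which reads whole transcripts, and into another with the Lexogen QuantSeq 3’ kit (3’-LEXO), which reads their 3′ ends, giving 12 libraries. The comparison of the diets asks which genes respond to dietary iron, and the comparison of the kits asks how the library method changes the answer.

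NRF2 is the main activator of antioxidant and detoxification genes. In an unstressed cell KEAP1 holds it in the cytoplasm and hands it to a ubiquitin ligase for degradation. Oxidants and electrophiles modify cysteines of KEAP1, and NRF2 then accumulates, enters the nucleus, pairs with a small MAF protein and binds antioxidant response elements. Iron can generate hydroxyl radicals through the Fenton reaction, and the liver is the main store of excess iron. Since the control of NRF2 acts largely on its protein, the level of its mRNA does not measure its activity.

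Totals ran from 13834682 to 16553616 counts in Trad-KAPA, and in 3’-LEXO from 10724672 to 14104236. The libraries of iron-loaded mouse 1 stood apart from those of iron-loaded mice 2 and 3, at a chi-square over degrees of freedom of 54.7 to 66.1 over genes, against 6.46 and 6.47 between mice 2 and 3 and 20.2 to 39.8 between control mice. Bmp6, a signal of liver iron to hepcidin, was 3.45 ± 0.386 CPM (counts relative to the library total, scaled by TMM within a kit) in control and 18.6 ± 2.76 CPM in iron-loaded mice in Trad-KAPA (SD, n = 3 each, edgeR adjusted p = 0.000506). In 3’-LEXO it had at most 4 counts per library and was not tested. Hamp, the hepcidin gene, was 5.14 times as high in iron-loaded mice in Trad-KAPA (edgeR adjusted p = 0.0667) and 5.79 times in 3’-LEXO (adjusted p = 0.0425). Id1, also checked for the iron response, was 3.31 times as high (edgeR adjusted p = 0.0295) and 3.15 times (adjusted p = 0.0531). Of these 3 genes 0 were below 0.05 in both kits. The hepatocyte markers Alb, Apoa1, Ttr, Tat, Cps1 and Serpina1a were all counted, and their summed level overlapped between diets in both kits, with 1 of the 6, Tat, higher in 3’-LEXO. The sum was lowest in iron-loaded mouse 1 in both kits, at 103584 CPM against 139201 to 160597 in the other mice in Trad-KAPA and at 41413 CPM against 55624 to 68238 in 3’-LEXO, and the part of this in the values of that mouse was not tested. These are bulk samples, in which fewer cells of a type and less RNA per cell cannot be told apart.

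The summed marker RNA of other liver cells differed between the groups in some lists, and for several lists in 1 kit only. The summed level of 6 Kupffer cell markers was 318.7 to 476.7 CPM in control and 538.5 to 550.0 CPM in iron-loaded mice in Trad-KAPA, and 878.8 to 1088 against 1079 to 1256 CPM in 3’-LEXO, where the groups overlapped. Of these 6 markers Vsig4 and Marco were higher in Trad-KAPA and Marco alone in 3’-LEXO. Marco went from 7.72 to 66.9 CPM in Trad-KAPA and from 19.8 to 139.9 CPM in 3’-LEXO (group means), and the other markers of this list did not pass. Sinusoidal endothelial markers summed to 298 to 373.1 against 291 to 375.3 CPM in Trad-KAPA and to 358.4 to 418.2 against 281.9 to 288.3 CPM in 3’-LEXO. Of these 6, Lyve1 was higher in both kits, and Stab2 and Fcgr2b were lower in 3’-LEXO. Stellate cell markers summed to 249.7 to 347.5 against 292.9 to 322.4 CPM in Trad-KAPA, where Des was lower, and to 444.9 to 484.6 against 397.5 to 421.4 CPM in 3’-LEXO, where 0 of 6 passed. The 5 cholangiocyte markers summed to 23.9 to 28.3 against 33.7 to 38.5 CPM in Trad-KAPA and to 30.5 to 36.9 against 41.9 to 43.5 CPM in 3’-LEXO, with Spp1 the 1 marker that passed in each kit. Spp1 went from 19.4 to 30.5 CPM in Trad-KAPA and from 20.0 to 32.5 CPM in 3’-LEXO (group means), while Sox9 was at 4.07 and 2.74 CPM and at 11.6 and 7.34 CPM in control and iron-loaded mice and did not pass (edgeR adjusted p = 0.106 and 0.0569). Red cell markers summed to 20.1 to 161.6 CPM in control and 15.4 to 28.5 CPM in iron-loaded mice in Trad-KAPA and to 164.6 to 1295 against 113.3 to 207.5 CPM in 3’-LEXO. These groups overlapped, with control mouse 3 the highest in both kits, and 0 of the 4 red cell genes tested passed. Sums of lymphocyte markers overlapped as well, and Cd79a, a B cell marker, had at most 3 counts in every 3’-LEXO library. Whether the numbers of these cells differed, and their part in the diet effects below, was not tested.

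To show the DNA beside these genes, the 250 bases before the start site are printed for Nqo1, Srxn1 and Slc7a11, the 3 genes that passed the diet test in both kits. They are from RefSeq (GRCm38.p6), whose table matched 9 of the 10 genes with 11 windows, 3 of them for Txnrd1, and they run 5′ to 3′ on the strand of the gene. Capitals mark matches, on either strand, to the core of the antioxidant response element (TGACNNNGC), to the AP-1 core (TGAGTCA) or to the amino acid response element (TGATGCAAA). The motifs do not overlap each other in these windows. The last 2 motifs were added after these sequences had been seen. The Nqo1 window is chr8:107403206-107403455, minus strand, the Srxn1 window chr2:152105274-152105523, plus strand, and the Slc7a11 window chr3:50443614-50443863, minus strand.
Nqo1: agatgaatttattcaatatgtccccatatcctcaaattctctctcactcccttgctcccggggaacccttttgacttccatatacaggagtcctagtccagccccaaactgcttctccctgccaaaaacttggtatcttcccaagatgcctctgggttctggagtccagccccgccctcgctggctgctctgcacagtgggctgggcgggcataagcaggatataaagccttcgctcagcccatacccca
Srxn1: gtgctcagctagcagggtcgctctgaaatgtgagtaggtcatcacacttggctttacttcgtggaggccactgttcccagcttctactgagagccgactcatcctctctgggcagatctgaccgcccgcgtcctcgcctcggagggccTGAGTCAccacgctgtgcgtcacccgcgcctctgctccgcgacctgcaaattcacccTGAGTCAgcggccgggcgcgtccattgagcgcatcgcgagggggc
Slc7a11: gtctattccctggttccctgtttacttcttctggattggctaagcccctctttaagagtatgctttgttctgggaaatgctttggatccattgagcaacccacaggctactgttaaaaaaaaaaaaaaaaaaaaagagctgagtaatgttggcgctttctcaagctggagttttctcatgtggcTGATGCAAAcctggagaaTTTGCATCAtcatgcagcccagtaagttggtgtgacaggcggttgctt

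The Nqo1 window holds none of these letters, which says nothing of elements farther away. The Srxn1 window holds the AP-1 core 102 and 45 bases before the start site. The Slc7a11 window holds the amino acid response element in both orientations, 66 and 48 bases before the start site. That motif was found in 0.271% of all 32851 promoter windows, which here also take in 50 bases after the start site, and the AP-1 core in 5.2% of them. A further AP-1 core stands on the opposite strand 97 bases before the start site of Osgin1. This site and the nearer Srxn1 site are each followed by GC on the strand of the motif. They have G where the antioxidant response element core, as searched here, has C, and so were not counted as matches to it.

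The antioxidant response element core was found in 12.4% of all windows and in 5 of the 11 windows of these genes, those of Nfe2l2, Gclm, Txnrd1, Srxn1 and G6pdx. The 4 matches that lie before the start site are printed with 10 bases on each side, to show how the 3 free letters vary. The one of Nfe2l2 reads in the sense direction, 240 bases before the start (chr2:75704885-75704913, minus strand). Those of Gclm (134 before, chr3:122245413-122245441, plus strand), Txnrd1 (92 before, chr10:82859104-82859132, plus strand) and G6pdx (57 before, chrX:74428919-74428947, minus strand) read on the opposite strand, so that their capitals show the reverse complement of the core. In Srxn1 the match lies 29 bases after the start site. These are matches of letters and not measured binding sites.
Nfe2l2: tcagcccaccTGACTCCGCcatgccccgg
Gclm: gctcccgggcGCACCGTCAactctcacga
Txnrd1: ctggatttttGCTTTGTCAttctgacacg
G6pdx: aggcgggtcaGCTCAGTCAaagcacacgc

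Of the 10 genes, 3 were higher in iron-loaded mice in Trad-KAPA (Nqo1, Srxn1 and Slc7a11) and 4 in 3’-LEXO (these and Nfe2l2), and 0 were lower in either kit. A gene passed when edgeR's quasi-likelihood test across all genes gave an adjusted p below 0.05 (Benjamini-Hochberg). Over all genes, 17.1% of 13151 passed in Trad-KAPA (8.77% higher and 8.37% lower) and 6.1% of 13301 in 3’-LEXO (3.17% higher and 2.92% lower). Slc7a11 was kept by the filter on low counts through the iron-loaded group alone, so that it had to differ, and without it 2 of 9 genes were higher in Trad-KAPA, and in 3’-LEXO 3 of 9. Without iron-loaded mouse 1, 4 of the 10 were higher in each kit, namely Nfe2l2, Nqo1, Srxn1 and Slc7a11, or 3 of 9 without Slc7a11, where 10.7% of all genes were higher in Trad-KAPA and 3.3% were in 3’-LEXO. The median log2 fold change of the 10 genes was 0.28 in Trad-KAPA, against 0.48 in 3’-LEXO, where that of all genes was 0.02 and 0.01. Without iron-loaded mouse 1 the medians were 0.16 and 0.23. In each kit 7 of the 10 values were above 0.

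**Figure D1:**
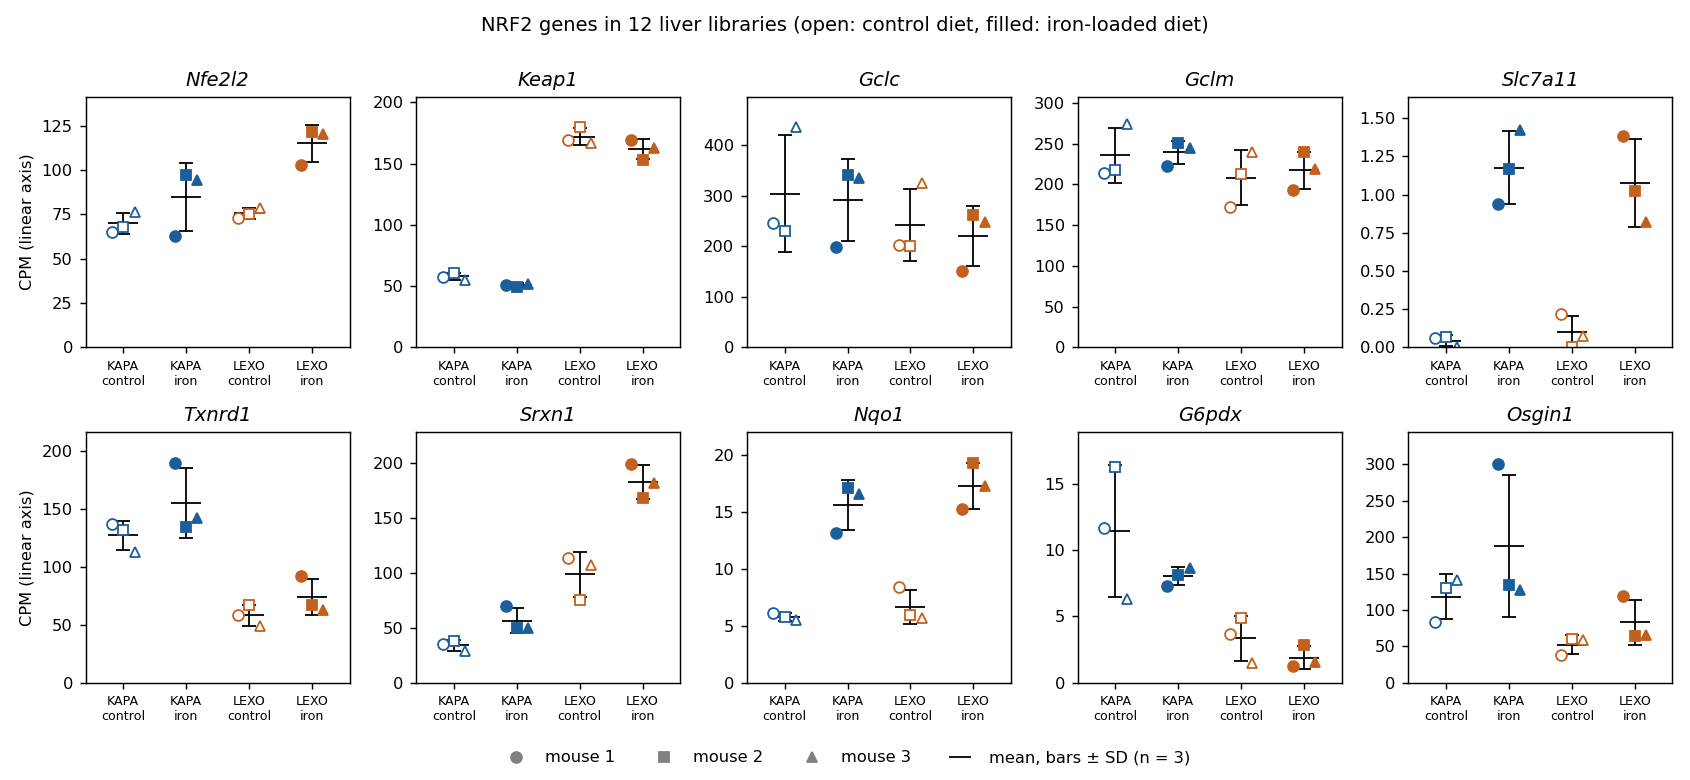
Level of each gene (y axis, CPM, linear axis from 0) in the 12 libraries by kit and diet (x axis), with 1 point per mouse and the mean ± SD of 3 mice in black. Nqo1, Srxn1 and Slc7a11 are separate between the diets in both kits, and iron-loaded mouse 1 (filled circles) is the highest iron-loaded mouse for Txnrd1, Srxn1 and Osgin1 and the lowest for Nfe2l2, Nqo1, Gclc, Gclm and G6pdx in both kits.

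The regulators come first. Nfe2l2 (ENSMUSG00000015839, chr2:75675513-75704641, GRCm38, 6 merged exons of 3796 bases) was at 65.3, 67.9 and 76.5 CPM in control mice 1, 2 and 3 and at 62.9, 97.1 and 94.2 CPM in iron-loaded mice 1, 2 and 3 in Trad-KAPA. Iron-loaded mouse 1 lay below every control mouse, while the other iron-loaded mice lay above them. In 3’-LEXO the values were 72.8, 75.1 and 78.7 CPM in control and 103, 122 and 120 CPM in iron-loaded mice. There the groups were separate, and iron-loaded mouse 1 was again the lowest of its group. The diet effect was a log2 fold change of 0.28 (SE 0.17, edgeR adjusted p = 0.276) in Trad-KAPA and 0.60 (SE 0.14, adjusted p = 0.0352) in 3’-LEXO, a 1.52-fold rise. Without iron-loaded mouse 1 it passed in both kits, with 0.46 (adjusted p = 0.0112) and 0.67 (adjusted p = 0.0124). Without any of the other 5 mice it did not pass in 3’-LEXO (adjusted p from 0.0832 to 0.124).

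Keap1 (ENSMUSG00000003308, chr9:21229730-21239361) encodes the adaptor that marks NRF2 for degradation. Its values were 57.7, 60.8 and 55.2 CPM in control and 51.1, 49.3 and 52.1 CPM in iron-loaded mice in Trad-KAPA. All iron-loaded mice were below all control mice, and the log2 fold change was -0.19 (SE 0.09, edgeR adjusted p = 0.184). In 3’-LEXO the groups overlapped, at 170, 180 and 167 CPM in control and 169, 153 and 163 CPM in iron-loaded mice, with -0.09 (SE 0.13, adjusted p = 0.725). The 95% intervals of the log2 fold change were -0.40 to 0.02 and -0.39 to 0.21. An antisense gene, Gm16754, shares 510 bases with its exons and had 42 counts over all libraries.

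Glutathione is made from cysteine by a ligase of a catalytic and a modifier subunit, Gclc and Gclm, and Slc7a11 is the light chain of the antiporter that brings cystine into the cell. Slc7a11 (ENSMUSG00000027737, chr3:49892526-50443614) had 1, 1 and 0 counts in control mice and 14, 17 and 20 counts in iron-loaded mice in Trad-KAPA. In 3’-LEXO it had 3, 0 and 1 counts in control and 19, 11 and 9 counts in iron-loaded mice. Every iron-loaded library was above every control library, and no control library had more than 3 counts. The summed counts were 51 against 2 in Trad-KAPA, 25.9 times as many per depth (exact 95% interval 6.82 to 219.9), and 39 against 4 in 3’-LEXO, 11.3 times as many (4.08 to 43.6). These intervals cover counting error only. The fitted fold change is not given because it depends on the prior count. The gene passed in both kits (edgeR adjusted p = 0.00479 and 0.0245). The filter on low counts kept it through the iron-loaded group alone, so that it had to differ. In 3’-LEXO it did not pass without control mouse 2 (adjusted p = 0.0787), without control mouse 3 (0.101) or without iron-loaded mouse 3 (0.0513).

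The 2 subunits of the ligase were abundant and did not pass in either kit. Gclc (ENSMUSG00000032350, chr9:77754535-77794485), the catalytic subunit, was at 246, 230 and 436 CPM in control and 198, 341 and 335 CPM in iron-loaded mice in Trad-KAPA, and at 201, 200.3 and 325 CPM against 152, 261 and 247 CPM in 3’-LEXO. Control mouse 3 was the highest of all mice and iron-loaded mouse 1 the lowest in both kits. The log2 fold change was -0.06 (95% interval -0.71 to 0.59, edgeR adjusted p = 0.903) in Trad-KAPA and -0.14 (-0.70 to 0.43, adjusted p = 0.775) in 3’-LEXO. Without control mouse 3 it was 0.29 and 0.12, and without iron-loaded mouse 1 it was 0.16 and 0.06, so that its sign rests on single mice. Gclm (ENSMUSG00000028124, chr3:122245557-122270732), the modifier subunit, was at 214, 218 and 275 CPM in control and 223, 250.4 and 244 CPM in iron-loaded mice in Trad-KAPA. In 3’-LEXO it was at 172, 212 and 240.0 CPM in control and 193, 239 and 219 CPM in iron-loaded mice. The groups overlapped in both kits, with intervals of the log2 fold change of -0.28 to 0.32 and -0.32 to 0.44.

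The thiol reductases restore oxidised proteins. Srxn1, sulfiredoxin, which repairs overoxidised peroxiredoxins, rose in both kits (ENSMUSG00000032802, chr2:152105516-152111376). In Trad-KAPA it was at 35.3, 38.0 and 28.8 CPM in control and 70.3, 49.8 and 50.1 CPM in iron-loaded mice, and in 3’-LEXO at 114, 75.5 and 108 CPM in control and 199, 168 and 182 CPM in iron-loaded mice. The diets did not overlap in either kit, and iron-loaded mouse 1 was the highest. The log2 fold change was 0.74 (SE 0.17, edgeR adjusted p = 0.0222) in Trad-KAPA, a fold of 1.67, and 0.89 (SE 0.18, adjusted p = 0.0228) in 3’-LEXO, a fold of 1.85. It did not pass without control mouse 1, 2 or 3 in Trad-KAPA (adjusted p from 0.054 to 0.0761), nor without control mouse 2, control mouse 3 or iron-loaded mouse 3 in 3’-LEXO (0.0629 to 0.0746).

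Txnrd1 (ENSMUSG00000020250, chr10:82833951-82897712), the cytosolic thioredoxin reductase, was at 137, 132 and 113 CPM in control and 190, 134 and 142 CPM in iron-loaded mice in Trad-KAPA. Its values in 3’-LEXO were 58.2, 67.2 and 49.2 CPM in control and 91.9, 67.1 and 62.9 CPM in iron-loaded mice. Iron-loaded mouse 1 stood above all others in both kits, and the other iron-loaded mice lay among or close to the control mice. The log2 fold change was 0.29 (SE 0.15, edgeR adjusted p = 0.223) in Trad-KAPA and 0.35 (SE 0.19, adjusted p = 0.277) in 3’-LEXO. Without that mouse it was 0.12 and 0.15.

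Nqo1 (ENSMUSG00000003849, chr8:107388225-107403206), the quinone reductase that reduces quinones with NADPH or NADH, rose in both kits. It was at 6.10, 5.75 and 5.48 CPM in control and 13.1, 17.1 and 16.6 CPM in iron-loaded mice in Trad-KAPA. In 3’-LEXO it was at 8.41, 5.93 and 5.67 CPM in control and 15.3, 19.3 and 17.3 CPM in iron-loaded mice. The lowest iron-loaded library was well above the highest control library in each kit, and these values rest on 71 to 249 counts per library. The log2 fold change was 1.43 (SE 0.15, edgeR adjusted p = 0.00188), a fold of 2.70 with a 95% interval of 2.12 to 3.43, in Trad-KAPA and 1.37 (SE 0.20, adjusted p = 0.00562), a fold of 2.59 with an interval of 1.90 to 3.52, in 3’-LEXO. It passed under all 13 alternatives run in each kit, with adjusted p-values up to 0.0163 and 0.0376.

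G6pdx (ENSMUSG00000031400, chrX:74409483-74429194), the X-linked glucose-6-phosphate dehydrogenase that feeds the pentose phosphate pathway and supplies NADPH, was at 11.7, 16.3 and 6.33 CPM in control and 7.30, 8.12 and 8.66 CPM in iron-loaded mice in Trad-KAPA. In 3’-LEXO it was at 3.70, 4.87 and 1.51 CPM in control and 1.24, 2.88 and 1.54 CPM in iron-loaded mice. The control mice spread more widely than the iron-loaded mice, and control mouse 3 was the lowest of its group in both kits. The log2 fold change was -0.52 (SE 0.30, edgeR adjusted p = 0.254) and -0.85 (SE 0.46, adjusted p = 0.277), with intervals of -1.19 to 0.16 and -1.87 to 0.17. Its exons share 418 bases with Ikbkg on the opposite strand, and 16.9% of its stretches of 50 bases are found in other transcripts too, which makes its counts uncertain where the counting did not use strand.

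Osgin1 (ENSMUSG00000074063, chr8:119434124-119446256) encodes an oxidative stress induced growth inhibitor. It was at 82.9, 130 and 142 CPM in control and 300.0, 135 and 127 CPM in iron-loaded mice in Trad-KAPA, and at 37.7, 60.5 and 58.8 CPM against 119, 64.7 and 65.9 CPM in 3’-LEXO. Iron-loaded mouse 1 was above every other mouse in both kits, while iron-loaded mice 2 and 3 were near control mice 2 and 3. The log2 fold change was 0.67 in both kits (SE 0.34, edgeR adjusted p = 0.203 in Trad-KAPA, and SE 0.27, adjusted p = 0.154 in 3’-LEXO). Without iron-loaded mouse 1 it was 0.16 (adjusted p = 0.60) and 0.31 (adjusted p = 0.359). It passed without the filter on low counts (adjusted p = 0.0421 and 0.00928).

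**Figure D2:**
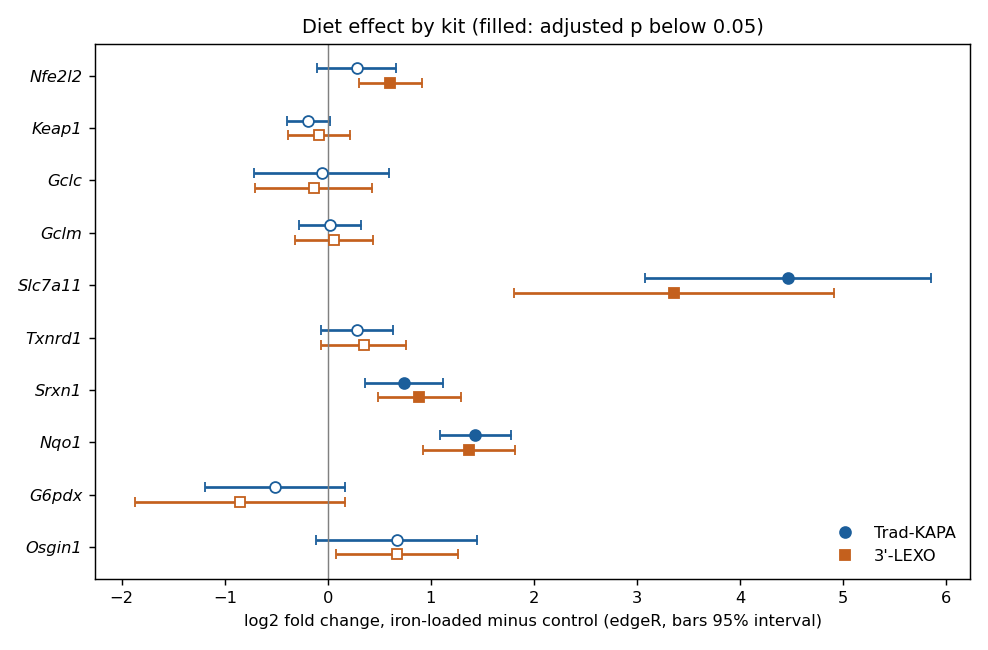
Log2 fold change of each gene (x axis, iron-loaded minus control, edgeR, bars the 95% interval) for the 10 genes (y axis) in Trad-KAPA (circles) and 3’-LEXO (squares), filled where the adjusted p was below 0.05. Nqo1, Srxn1 and Slc7a11 are filled in both kits and Nfe2l2 in 3’-LEXO. The filter on low counts kept Slc7a11 through the iron-loaded group alone, so that it had to differ. Its point depends on the prior count because no control library had more than 3 counts.

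The diets were separate, with each iron-loaded library above each control library, in Trad-KAPA for 3 of the 10 genes, and in 3’-LEXO for 5, where Nfe2l2 and Osgin1 joined Nqo1, Srxn1 and Slc7a11. Leaving out Slc7a11, which had to differ, the counts were 2 of 9 and 4 of 9. Of all genes tested, 20.7% were separate in that direction in Trad-KAPA, against 15.9% in 3’-LEXO. In the other direction Keap1 was separate in Trad-KAPA and 0 genes of the 10 in 3’-LEXO, against 21.1% and 15.6% of all genes.

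The mice also differed within a diet, and the kits gave the same order in part, for which the share over all genes was not counted. In 20 sets of a gene and a diet, the same mouse was the highest in both kits in 13 and the lowest in 15, and all 3 mice had the same order in 11. Both libraries of a mouse come from 1 RNA, so that this is no replicate of the mouse. In the iron-loaded group mouse 1 was the lowest for Nfe2l2, Nqo1, Gclc, Gclm and G6pdx and the highest for Txnrd1, Srxn1 and Osgin1 in both kits. In the control group mouse 3 was the highest for Nfe2l2, Gclc and Gclm and the lowest for Keap1, Nqo1, Txnrd1 and G6pdx in both kits.

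The kits were then compared for the diet effect itself, by the interaction of kit and diet over all 12 libraries. Among 14384 genes 0% passed in edgeR, where 402 had an unadjusted p below 0.05, and in DESeq2, run on all 27022 genes, 0 passed and 390 had such a p. Of the 10 genes 0 passed, in edgeR and in DESeq2, and 0 of them had an unadjusted p below 0.05 in edgeR. Nfe2l2, which passed the diet test in 3’-LEXO and not in Trad-KAPA, had an interaction of 0.32 on the log2 scale (95% interval -0.14 to 0.79, edgeR unadjusted p = 0.158). The interval for Nqo1 was -0.60 to 0.48 and that for Srxn1 -0.41 to 0.70. That fit treated the 12 libraries as independent and left out the pairing by mouse. With the mouse as a block 1026 genes had an unadjusted p below 0.05 in edgeR. There 5 genes of all passed, none of them among the 10, and the adjusted p of Nfe2l2 was 0.543.

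The share of a library that a kit gave to a gene differed more. Averaged over the diets, 76.5% of all genes differed between the kits (38.8% higher and 37.6% lower in 3’-LEXO), and of the 10 genes 6 did. Keap1 and Srxn1 took 3.08 times their Trad-KAPA share in 3’-LEXO (log2 1.62 for each, SE 0.07 and 0.13, edgeR adjusted p = 1.73e-10 and 6.7e-08). Nfe2l2 was 1.21 times as high in 3’-LEXO (log2 0.28, SE 0.11, adjusted p = 0.0302), and this call was lost without any 1 of the mice other than iron-loaded mouse 1 (adjusted p from 0.0576 to 0.144) and without the filter on low counts (0.0986). G6pdx was lower in 3’-LEXO by a log2 of -1.93 (SE 0.29, adjusted p = 3.11e-05), Osgin1 by -1.17 (SE 0.24, adjusted p = 0.000561) and Txnrd1 by -1.10 (SE 0.13, adjusted p = 2.38e-06). Gclc, Gclm, Nqo1 and Slc7a11 did not pass, with intervals of -0.82 to 0.09, -0.38 to 0.07, -0.09 to 0.45 and -0.76 to 1.63. With the mouse as a block, which pairs the libraries of a mouse, 8 of the 10 passed, beside 82.6% of all genes, and Gclc (adjusted p = 1.01e-05) and Gclm (adjusted p = 0.0155) joined. Nfe2l2 passed in that fit as well, at a log2 of 0.29 (edgeR adjusted p = 0.000364).

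**Figure D3:**
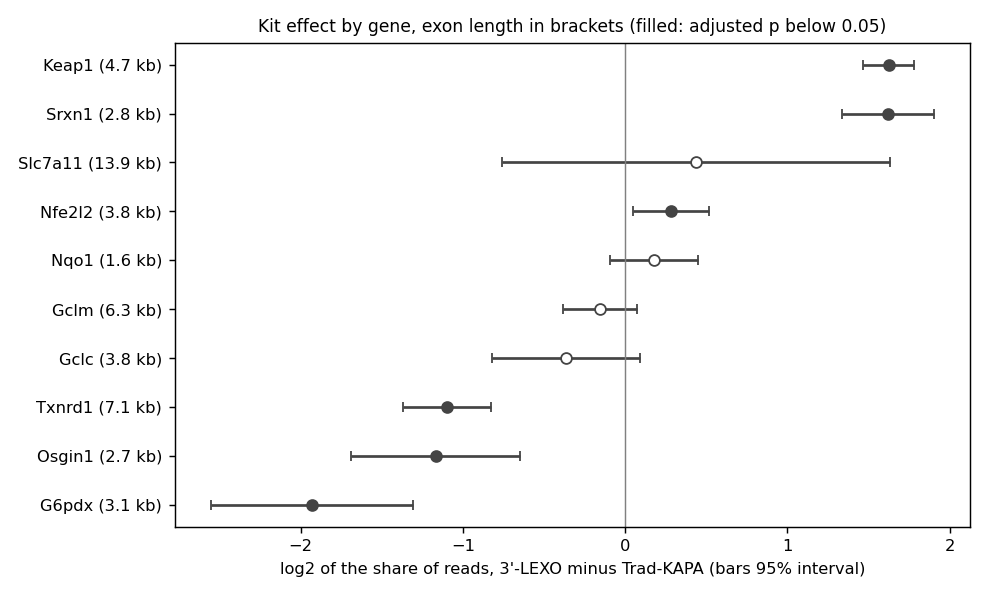
Log2 ratio of the share of reads in 3’-LEXO over Trad-KAPA (x axis, bars the 95% interval, 12 libraries) for the 10 genes, with the summed exon length of each gene beside its name, filled where the adjusted p was below 0.05. Keap1 and Srxn1 lie highest at 1.62, and Txnrd1, Osgin1 and G6pdx lie below -1.

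In Trad-KAPA levels were compared between genes per length, as CPM divided by the exon length in kilobases (RPKM, computed here from the counts). In control mice Gclc was the most abundant at 80.7 ± 30.5 RPKM (SD, n = 3), with a lowest mouse at 61.1. Osgin1 followed at 44.2 ± 11.6 and Gclm at 37.5 ± 5.38 RPKM, and these neighbours overlapped, with ranges of 31.0 to 53.0 and 34.1 to 43.7. Nfe2l2 at 18.4 ± 1.55 and Txnrd1 at 17.97 ± 1.77 RPKM did not differ beyond their spread, and neither did Keap1 at 12.3 ± 0.598 and Srxn1 at 12.1 ± 1.68 RPKM. Nqo1 at 3.72 ± 0.20 and G6pdx at 3.71 ± 1.62 RPKM overlapped as well, and Slc7a11 was at 0.0049 RPKM or less in each control mouse. In iron-loaded mice Nqo1 reached 10.1 ± 1.40 RPKM, near Keap1 at 10.8 ± 0.298, and Slc7a11 was at 0.0845 ± 0.0173 RPKM, still the lowest of the 10. The 3’-LEXO kit is designed to give 1 read per transcript whatever its length, and its CPM gave another order in control mice. Gclc came first there at 242 ± 71.6 CPM (SD, n = 3), followed by Gclm at 208 ± 34.0 and Keap1 at 172 ± 6.72 CPM, and each overlapped its neighbour. Srxn1 at 99.0 ± 20.6 and Nfe2l2 at 75.6 ± 2.98 CPM overlapped, as did Txnrd1 at 58.2 ± 9.01 and Osgin1 at 52.4 ± 12.7 CPM, so that Osgin1 was second per length in Trad-KAPA and seventh in 3’-LEXO. Nqo1 at 6.67 ± 1.51, G6pdx at 3.36 ± 1.70 and Slc7a11 at 0.0977 ± 0.110 CPM were again the lowest.

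Among 47 other genes of the pathway, 44 were tested in each kit, and 15 were higher and 0 lower in iron-loaded mice in Trad-KAPA, 10 were higher and 0 lower in 3’-LEXO, and 9 were higher in both. Of all genes, 8.77% were higher and 8.37% lower in Trad-KAPA, and 3.17% were higher and 2.92% lower in 3’-LEXO. The share of all genes higher in both kits was not counted. Their median log2 fold change was 0.14 in Trad-KAPA, against 0.26 in 3’-LEXO. Without iron-loaded mouse 1, 16 and 11 were higher and 0 were lower, beside 10.7% and 3.3% higher among all genes. With 1 of the other mice left out, 7 to 13 were higher in Trad-KAPA and 1 to 7 in 3’-LEXO, and 0 were lower. In those fits 841 to 1239 of all genes passed in either direction in Trad-KAPA, and 199 to 771 in 3’-LEXO. The share of all genes that were higher there was not counted. The pathway genes fell into groups that differed in how many passed, and the shares of all genes in the main fits stand beside each group.

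Of 10 regulators of NRF2, 4 were higher in Trad-KAPA, 3 in 3’-LEXO, and Cul3, Maff and Bach1 were higher in both. Maff, a small MAF protein that can pair with NRF2, was at 3.57, 3.11 and 3.55 CPM in control and 6.23, 7.501 and 7.17 CPM in iron-loaded mice in Trad-KAPA, and at 2.68, 2.40 and 3.40 CPM against 5.46, 8.64 and 7.997 CPM in 3’-LEXO. It rose 2.04-fold (edgeR adjusted p = 0.00847) and 2.59-fold (adjusted p = 0.0169). Bach1, a repressor that competes with NRF2 for the same DNA elements and is released by heme, was at 37.5, 34.6 and 41.2 CPM in control and 74.9, 61.2 and 68.0 CPM in iron-loaded mice in Trad-KAPA. In 3’-LEXO it was at 19.1, 16.2 and 16.2 CPM against 36.5, 31.0 and 31.6 CPM. It rose 1.80-fold (edgeR adjusted p = 0.00479) and 1.92-fold (adjusted p = 0.00809), and both genes were separate between the diets in both kits. Cul3, the scaffold of the ligase that KEAP1 serves, rose 1.42-fold (edgeR adjusted p = 0.0144) and 1.43-fold (adjusted p = 0.0437).

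Of 20 detoxification genes 18 were tested, and 9 were higher in Trad-KAPA, 7 in 3’-LEXO and 6 in both (Gstm3, Gstp1, Ephx1, Aox1, Ugdh and Abcc4). The 9 take in Gsta2, at 0.561 ± 0.314 CPM in control and 2.51 ± 0.883 CPM in iron-loaded mice in Trad-KAPA (SD, n = 3 each). As with Slc7a11, the filter on low counts kept Gsta2 there through the iron-loaded group alone, so that it had to differ. Gsta2 also shares 49.8% of its stretches of 50 bases with other genes. Abcc4, an efflux pump for bile acids and conjugates, was at 2.24, 1.89 and 1.39 CPM in control and 91.9, 23.1 and 22.9 CPM in iron-loaded mice in Trad-KAPA, and at 3.26, 2.61 and 1.66 CPM against 46.7, 12.5 and 11.9 CPM in 3’-LEXO. Iron-loaded mouse 1 was far above the other iron-loaded mice, which were themselves above all control mice. The rise was 24.6-fold (edgeR adjusted p = 0.00514) and 9.44-fold (adjusted p = 0.0118), and without that mouse 12.3-fold (adjusted p = 2.25e-05) and 4.80-fold (adjusted p = 0.000535). Gstp1, a glutathione transferase, was at 15.4, 13.2 and 15.5 CPM in control and 47.6, 35.9 and 36.3 CPM in iron-loaded mice in Trad-KAPA, and at 6.82, 6.77 and 7.71 CPM against 51.9, 16.4 and 26.5 CPM in 3’-LEXO. It rose 2.71-fold (edgeR adjusted p = 0.00149) and 4.46-fold (adjusted p = 0.0109), and shares 33.7% of its stretches of 50 bases with Gstp2. Ephx1, which opens epoxides, rose 2.10-fold and 2.00-fold (edgeR adjusted p = 0.00375 and 0.00888).

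In the other groups few or none passed. Of 7 other genes of glutathione and thioredoxin 6 were tested and 0 passed in either kit, and of 5 genes that supply NADPH (Pgd, Taldo1, Tkt, Me1 and Idh1) 0 passed in either kit, in which G6pdx did not pass either. Of 5 genes of heme and iron, 2 were higher in Trad-KAPA, and in 3’-LEXO 0. These were Hmox1, heme oxygenase, at 33.2 ± 7.66 CPM in control and 89.6 ± 19.6 CPM in iron-loaded mice (SD, n = 3 each, edgeR adjusted p = 0.00579), and Blvrb, a biliverdin reductase, with a fold of 1.37 (adjusted p = 0.0307). In 3’-LEXO Hmox1 was at 20.6 ± 11.4 and 38.1 ± 7.39 CPM (edgeR adjusted p = 0.13). Ferritin heavy chain Fth1 was at 1235 ± 159 CPM in control and 1053 ± 151 CPM in iron-loaded mice in Trad-KAPA and did not pass in either kit.

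**Figure D4:**
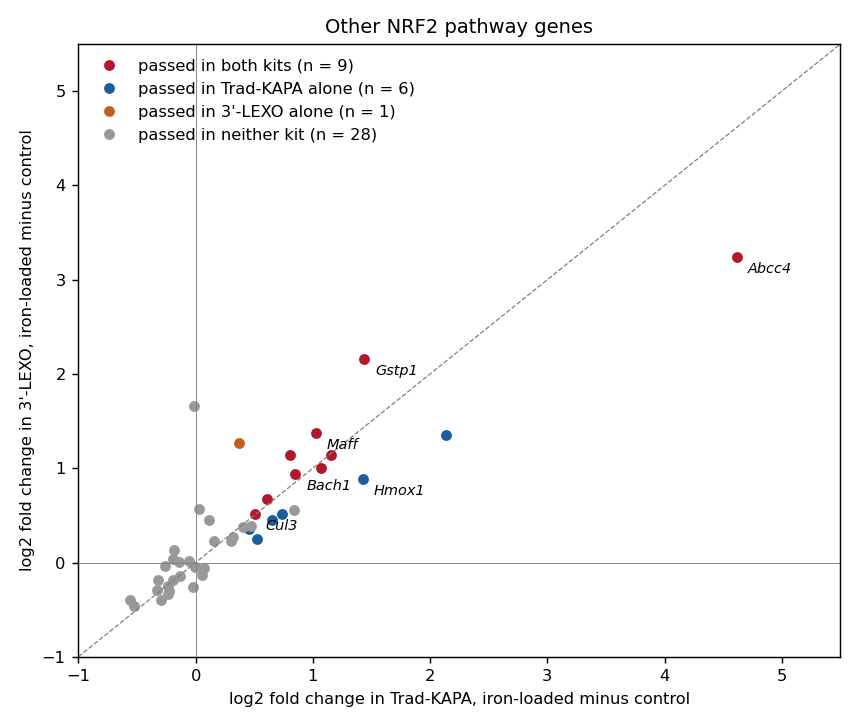
Log2 fold change (iron-loaded minus control) in Trad-KAPA (x axis) and in 3’-LEXO (y axis) of the 44 other pathway genes that were tested in both kits, coloured by the kits in which they passed, with the line of equal change dashed. All 9 genes that passed in both kits lie above 0 on both axes, and Abcc4 lies farthest out at 4.62 and 3.24.

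By its profile over the 12 libraries, Nqo1 was closest to Nampt, Pik3ap1, Ildr2, Pfkfb3 and Zpr1. Profiles were centred and not scaled, so that closeness depends on the size of a change as well as on its shape. The measure was the root mean square difference of log2 CPM centred within each kit, over 12228 genes, and it was 0.153 for Nampt, which makes a precursor of NAD, and 0.196 for Zpr1, the fifth. Among the other 9 genes described here the closest was Srxn1 at 0.40, which took rank 217, followed by Nfe2l2 at 0.52, rank 992. G6pdx was the farthest at 1.075, rank 11376.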

How the data were processed

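RNA of 6 livers was read in 12 libraries by 2 kits with single-end reads. STAR 2.5.3a and GRCm38 were used for mapping, and the authors deposited raw counts per gene of uniquely mapped exonic reads, without normalization. The counting program, its use of strand and the annotation release are not given in the sources used here. The submitters' processing notes name the same aligner and build. Symbols, positions and exon lengths were taken from GENCODE M21 (GRCm38), which held 26949 of the 27022 identifiers.

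Groups and mouse numbers were taken from the sample titles. edgeR 4.0.16 (R 4.3.3, limma 3.58.1) was used with filterByExpr, TMM and the quasi-likelihood test, within each kit for the diets and over all 12 libraries for the interaction and the kit effect, with Benjamini-Hochberg adjustment at 0.05. CPM are TMM-scaled and relative to the genes kept by the filter, and equal depth means counts drawn to 10 M per library. DESeq2 1.42.0 was an alternative. Tables and figures were made with Python 3.11.15. The tests were checked on simulated counts with a fixed spread, independent libraries and no mouse that stood apart. That check does not cover the pairing by mouse, iron-loaded mouse 1 or genes with counts as low as Slc7a11. The p-values of the diet tests measure the spread between 3 mice of 1 cage. The main fits of the interaction and the kit effect treated the 12 libraries as independent, although each mouse gave 1 library per kit. Only the fits with the mouse as a block pair them.

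The same number names the same mouse in both kits. Deviations from the group means correlated between the kits at r = 0.421 to 0.756 for each mouse (over 10326 genes, which are not independent). The genes and lists were chosen with earlier results of these data known. Named were all 10 genes, up to 2 genes of each pathway group that passed in both kits with the largest change, and the 5 genes closest in profile to Nqo1. Cul3, Ephx1, Gsta2, Hmox1, Blvrb, Fth1 and Ftl1 were named after their values were seen. In total, 52 alternatives over 4 tests were planned, and 2 counts, with 1 mouse left out for the pathway genes and without Slc7a11, were added after seeing the data.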

Additional observations from a re-analysis of the deposited data

How the results depend on the processing

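Of 513 values of the 10 genes under the alternatives, 464 kept their direction and their side of the threshold, 22 were no longer past it, 6 were newly past it and 21 changed sign. Genes that passed for the diet in Trad-KAPA numbered 841 to 2803 when 1 mouse was left out, against 2255. In 3’-LEXO, against 811, they numbered 1313 with DESeq2, 2040 without the filter on low counts, 436 with the replicate block and 199 to 871 with 1 mouse left out. Members of the set of 10 that passed in 3’-LEXO numbered 2 with the replicate block, when Nfe2l2 (adjusted p = 0.0771) and Slc7a11 (adjusted p = 0.0568) were lost, and 1 to 4 with 1 mouse left out. For the interaction 7 genes passed without the filter and 5 with the replicate block. Across diets the numbers are only names (r = -0.157 to 0.0885 between same-numbered mice), and the replicate block changed no other diet call of the 10 genes. The cause of these changes was not tested.

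The values that changed sign were small and had not passed. In Trad-KAPA the log2 fold change of Gclc was 0.013 with library totals in place of TMM and ran from -0.23 to 0.29 with 1 mouse left out, and that of Gclm from -0.041 to 0.15. In 3’-LEXO those ranges were -0.29 to 0.12 and -0.065 to 0.17. The interaction at equal depth was 0.050 for Nqo1 and -0.0049 for Gclm, and for Osgin1 it was -0.024 with library totals and -0.013 without the filter. With 1 mouse left out it ran from -0.13 to 0.12 for Nqo1, from -0.085 to 0.32 for Srxn1 and from -0.073 to 0.20 for Osgin1. The kit effect of Slc7a11 was -0.099 at equal depth and ran from -0.082 to 0.86 with 1 mouse left out. Slc7a11 had no value in the diet fits with a mean of at least 50 counts or at equal depth, nor G6pdx in 3’-LEXO with a mean of at least 50 counts, since the filters removed them. The low counts of Slc7a11 limit its fold in both kits.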
